A study of Mus musculus with 24 samples.

Results

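Border pairs 40 to 60 bp apart were described in a Rev-erbα ChIP-exo map of mouse liver. In ChIP-exo, exonucleases digest precipitated DNA up to the crosslinked protein, so that each protected stretch is bounded by a border on the plus strand and a border on the minus strand. Members were chosen by their border spacing: on chromosomes 1 to 19 and X, each plus-strand border was joined to the next minus-strand border downstream, and pairs 40 to 60 bp apart were kept. Of 122270 joined plus borders, 7986 (6.53%) met this rule, which is 16.4% of the 48754 pairs spaced up to 200 bp. They used 7608 distinct minus borders, 752 members shared a minus border with another member, and overlapping members merged into 7604 loci. They were set against pairs of 24 to 26 bp (3319), pairs of 28 to 30 bp (2110), pairs of 61 to 200 bp (20926) and all other pairs of 5 to 200 bp (39475).

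The study held 24 samples in 16 groups, of which 3 were used here: Rev-erbα ChIP-exo of liver with 2 libraries, Rev-erbα ChIP-seq of eWAT (the epididymal fat pad) with 2 libraries, and Rev-erbα ChIP-seq of brain tissue from the ventral tegmental area with 1 library. All 3 came from wild-type C57BL/6J mice at zeitgeber time 10, that is 10 h after lights on, and carried no transgene or treatment in the labels. Each group was represented by 1 list, with no value per library, so no spread between animals could be computed and the sequencing depth was unknown. Every p-value therefore compares classes of sites within these lists and covers counting error only, and neighbouring sites are not independent. The lists held 245360 liver borders, 9016 eWAT peaks and 10687 brain peaks. Coordinates are 1-based on mm9.

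Rev-erbα (gene Nr1d1) is a heme-binding nuclear receptor that represses transcription through the NCoR and HDAC3 corepressor complex and links the circadian clock to liver metabolism. It contacts DNA as a monomer at an AGGTCA half-site preceded by A and T bases, or as a pair of receptors at tandem half-sites. Liver enhancers also carry HNF6 (Onecut1), HNF4 (Hnf4a), C/EBP and FOXA proteins, which set hepatocyte gene programs, as well as E-box and D-box factors of the clock, and a protein bound beside the receptor can leave borders of its own in the same precipitate. A protected stretch of 40 to 60 bp is wider than the stretch at which such pairs were most frequent in this list, and is long enough to hold 2 neighbouring elements.

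The members that show this arrangement most plainly had one element at each end. They were few. As counted below, 131 of 7986 members (1.64%) had an element near both borders, and 6381 (79.9%) had one near neither. The following 6 intervals were selected after their values were seen, as the highest summed signal of the pairing of elements they represent among members with a single copy of their central bases in mm9 and no further plus border inside. Each is printed from the mm9 plus strand, 5′ to 3′, with 10 bases added beyond either border, and capitals mark every match to the 19 motifs searched.
Phf17, chr3:41368523-41368587: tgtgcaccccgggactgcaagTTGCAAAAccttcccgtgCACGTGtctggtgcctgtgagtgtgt
1700009N14Rik, chr4:39503459-39503532: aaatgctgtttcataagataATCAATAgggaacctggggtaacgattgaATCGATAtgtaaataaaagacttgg
Nptn, chr9:58429889-58429958: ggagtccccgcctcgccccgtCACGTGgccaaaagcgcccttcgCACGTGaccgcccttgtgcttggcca
Dnajc5b, chr3:19347922-19347986: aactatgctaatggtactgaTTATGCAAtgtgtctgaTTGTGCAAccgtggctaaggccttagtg
Ppp1r3g, chr13:36051741-36051818: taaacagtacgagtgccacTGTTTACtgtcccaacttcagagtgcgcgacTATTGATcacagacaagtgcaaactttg
Ahcy, chr2:154924848-154924913: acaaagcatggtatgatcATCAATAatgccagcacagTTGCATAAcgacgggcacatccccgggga
The Phf17 interval held a C/EBP element that began 11 bases inside the plus border and an E-box 10 bases inside the minus border. In the second interval 2 HNF6 elements lay 10 and 8 bases inside the borders, and in the interval 124 bp upstream of Nptn 2 E-boxes lay 11 and 10 bases inside. The interval upstream of Dnajc5b carried a C/EBP element at each end. The Ppp1r3g interval paired a FOXA element with an HNF6 element, and the Ahcy interval an HNF6 element with a C/EBP element.

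The spacing counts showed no preferred width between 40 and 60 bp. Single spacings held between 335 pairs (59 bp) and 426 pairs (41 bp), and the mean per 1 bp step was 396.2 pairs from 40 to 49 bp and 365.8 pairs from 50 to 60 bp. It was 457.6 pairs from 30 to 39 bp, 312.9 pairs from 61 to 70 bp and 72.8 pairs from 151 to 200 bp. By contrast, 1562 pairs lay at 25 bp and 956 at 29 bp. Just inside the limits there were 409 pairs at 40 bp and 343 pairs at 60 bp, against 432 pairs at 39 bp and 322 pairs at 61 bp just outside. The members thus form a section of a smooth decline. The authors' border signal, whose scale is not stated, had a median sum over both borders of 1.37 at 40 bp and 1.23 at 60 bp, against 1.33 at both 39 and 61 bp.

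**Figure D1:**
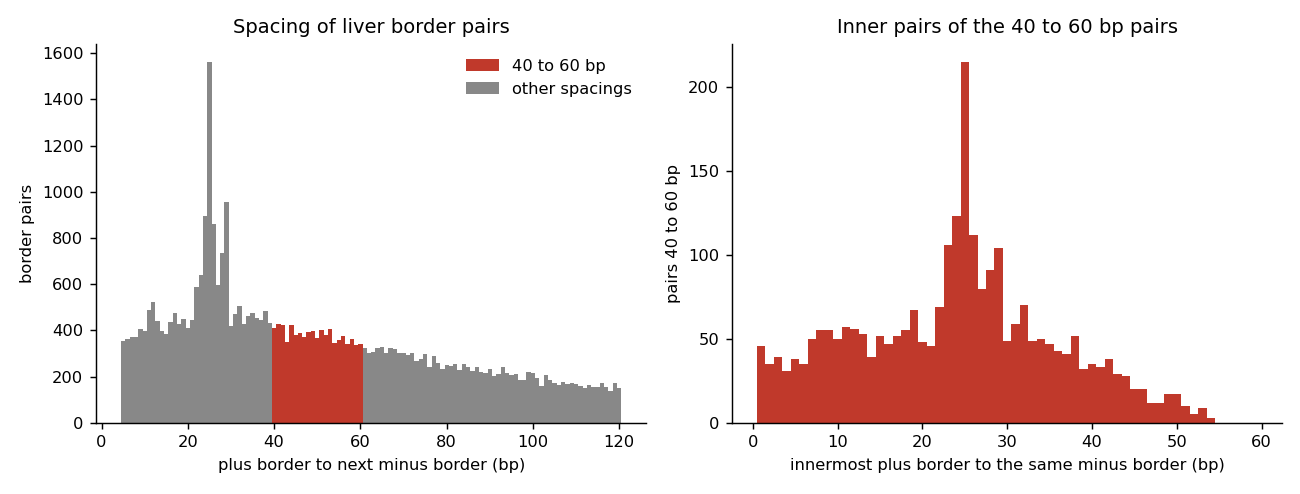
Left, number of border pairs (y) at each spacing in bp (x), with the 40 to 60 bp pairs in red and other spacings from 5 to 120 bp in grey. Right, for members with a further plus border inside, number of members (y) by the distance in bp (x) of the innermost plus border to the shared minus border. The left panel has its peaks at 25 and 29 bp and none between 40 and 60 bp, and the right panel peaks at 25 bp with 215 members.

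Many members enclosed a shorter pair. A further plus border lay inside 2686 members (33.6%), and 5300 members had none. The innermost of these plus borders was most often 25 bp from the shared minus border (215 members). It was 24 to 26 bp away in 450 members and 28 to 30 bp away in 244. By the joining rule each enclosed plus border also forms a pair with the same minus border, so these inner pairs are themselves counted in the narrower classes, and the following shares, over the windows of the members, are a description. In the later tests against other classes the same stretch can likewise be counted on both sides. The alternative setting with only pairs that enclose no plus border avoids this overlap. An HNF6 element was found in 34.0% of the members with an inner pair of 24 to 26 bp, in 4.92% of those with an inner pair of 28 to 30 bp and in 6.60% of the members with no plus border inside. A D-box, the element of the PAR bZIP clock proteins, was found in 13.1% of the members with an inner pair of 28 to 30 bp, in 1.11% of those with an inner pair of 24 to 26 bp and in 2.75% of the members with none inside.

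The signal of the members was modest. Its sum over both borders had a median of 1.33 (10th percentile 0.729, 90th percentile 2.83), against 1.85 in pairs of 24 to 26 bp, 1.69 in pairs of 28 to 30 bp and 1.23 in pairs of 61 to 200 bp. The medians of the plus and the minus border were 0.634 and 0.653, and the stronger border exceeded the weaker at least 2-fold in 24.9% of the members. These values share their readout with the rule and are given as a description. The highest sum, 233.4, belonged to an interval in an exon of Gm10801 (chr2:98502461-98502510), with signals of 77.5 and 155.9 at the plus and minus borders. Its central 31 bases occur 50 times in mm9. The third interval, in an intron of Gm10720 (chr9:3016060-3016105, sum 25.9), has 27 such copies, and the eighth, in an intron of Prkg2 (chr5:99420920-99420962, sum 16.1), has 6. Over all members 74 (0.927%) had more than 1 copy, and the effect of copy number on the signal was not tested.

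Between and below these 3 stood intervals with 1 copy. The second was intronic in Ubap1 (chr4:41315431-41315490), with signals of 21.4 and 18.5 at the plus and minus borders, and had a C/EBP element 11 bases inside the plus border. The Phf17 interval printed above came next (10.8 and 12.9). Ppara, the gene of the fasting-responsive receptor of fatty acid oxidation, held the fifth (chr15:85601801-85601841, 8.71 and 11.2), in an intron 823 bp upstream of its nearest annotated start. It enclosed an inner pair of 25 bp, and its E-box began 10 bases inside the plus border. An intergenic interval 210225 bp from the nearest start, that of Gm6657, came sixth with 7.14 and 12.3 and an HNF6 element 8 bases inside the minus border. Azgp1, which encodes a secreted zinc-binding glycoprotein, had the seventh 6637 bp upstream of its start (chr5:138416092-138416132, 12.3 and 5.62). The ninth lay 1126 bp upstream of Etnk2, an ethanolamine kinase (chr1:135258993-135259053, 8.42 and 6.96), the eleventh at Tef (2.67 and 12.4) and the twelfth 169 bp upstream of Fam76a (9.58 and 4.00). The Ppara and Fam76a intervals, shown because each has its element at the plus border alone, read as follows, with capitals for motif matches.
Ppara, chr15:85601791-85601851: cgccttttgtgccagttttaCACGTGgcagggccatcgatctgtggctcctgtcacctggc
Fam76a, chr4:132478611-132478673: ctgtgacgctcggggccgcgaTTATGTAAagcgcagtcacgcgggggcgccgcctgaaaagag
In Fam76a the D-box began 11 bases inside the plus border.

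Motif shares were compared in a 100 bp window centred on each pair, so that all classes were searched over the same length. The window holds the whole interval of every member, but not the ends of the widest pairs of 61 to 200 bp. Elements beside a border can be missed there, so shares in those pairs, and in all other pairs, are not of like stretches. A 200 bp window, which spans the inside of every pair, is among the alternative settings. The 19 motifs were searched on both strands. They were AGGTCA (nuclear receptor half-site), ANTAGGTCA (Rev-erb/ROR monomer element, which contains AGGTCA), CAAAGTNCA (HNF4), TATNGAT (HNF6), TTGCNNAA (C/EBP), TGTTTAC (FOXA), GTTAATNA (HNF1), CCGGAAG (ETS), CCAATCA (NF-Y), GGGCGGG (SP/KLF), CACGTG (E-box), TTANGTAA (D-box), GCGCATGCG (NRF1), AAGATGGCG (YY1), TGANTCA (AP-1), TGACGTCA (CRE), AGNGGGCG (CTCF core), ACANNNTGT (glucocorticoid receptor) and TTCNNNGAA (STAT). Fisher's exact test, two-sided, was adjusted by the Benjamini-Hochberg method over 76 comparisons, and its p is given as the adjusted exact p. Against pairs of 61 to 200 bp, 5 motifs were higher in the members and 2 lower (36.8% of the 19 called). Against pairs of 24 to 26 bp, 4 were higher and 2 lower (31.6% called), and against pairs of 28 to 30 bp also 4 higher and 2 lower (31.6% called). Against all other pairs, 2 were higher and 0 lower (10.5% called), and 3 had an unadjusted p under 0.05.

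By the ratio of shares, the clock E-box separated the members most from the sequence 500 bp away, which was not tested. The E-box is the site of CLOCK and BMAL1 as well as of other bHLH factors. E-boxes were found in 10.6% of the members (846 of 7986, 95% Wilson interval 9.94 to 11.3), against 8.06% of pairs of 61 to 200 bp (adjusted exact p = 2.48e-10) and 9.02% of all other pairs (adjusted exact p = 1.11e-04). Windows centred 500 bp to either side of the members held one in 1.37%, a 7.73-fold lower share. Pairs of 28 to 30 bp held one in 8.72% (adjusted exact p = 0.0412), and pairs of 24 to 26 bp in 10.3%, which did not pass the test (adjusted exact p = 0.916). Over 10 alternative settings the difference from all other pairs ran from 0.836 to 2.53 points (adjusted exact p from 3.35e-10 to 0.403). It missed the threshold in 2, with both border p-values at 0.02 or less (adjusted exact p = 0.403) and over 1 kb from every annotated start (0.968 points, adjusted exact p = 0.0606).

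For elements of hepatocyte factors the direction of the difference depended on the class compared. A C/EBP element was found in 13.2% of the members, against 10.1% of pairs of 61 to 200 bp (adjusted exact p = 1.84e-12) and 21.6% of pairs of 28 to 30 bp (adjusted exact p = 4.44e-19), and in 3.96% of windows 500 bp away. Against all other pairs it was also higher (13.2% and 11.8%, adjusted exact p = 0.0023), but the difference missed the threshold in 5 of 10 alternative settings (0.139 to 2.04 points, adjusted exact p from 2.64e-08 to 0.937), among them pairs with no plus border inside (0.389 points). The HNF6 element was found in 8.24% of the members, against 33.5% of pairs of 24 to 26 bp (adjusted exact p = 5.75e-225), 4.50% of pairs of 28 to 30 bp (adjusted exact p = 1.25e-08) and 5.19% of pairs of 61 to 200 bp (adjusted exact p = 7.74e-20). Against all other pairs it stood at 8.24% and 8.15% (adjusted exact p = 0.956), and its sign turned with the setting, from -1.98 points with only pairs that enclose no plus border (adjusted exact p = 8.93e-06) to 1.08 points in a 60 bp window (adjusted exact p = 0.00185). The FOXA element, bound by pioneer factors of liver enhancers, was in 4.56% of the members, against 3.34% of pairs of 24 to 26 bp, 3.18% of pairs of 28 to 30 bp, 3.61% of pairs of 61 to 200 bp and 4.05% of all other pairs (adjusted exact p = 0.0148, 0.0186, 0.00181 and 0.118). The FOXA difference from 61 to 200 bp missed the threshold in 2 of 10 alternative settings, with both border p-values at 0.02 or less (adjusted exact p = 0.152) and in a 200 bp window (adjusted exact p = 0.126), and its adjusted exact p in the others began at 1.62e-11. D-boxes were found in 2.93% of the members, against 2.05% of pairs of 24 to 26 bp (adjusted exact p = 0.0341), 11.6% of pairs of 28 to 30 bp (adjusted exact p = 3.34e-49), 2.29% of pairs of 61 to 200 bp (adjusted exact p = 0.0107) and 2.70% of all other pairs (adjusted exact p = 0.448). The D-box difference from 61 to 200 bp missed the threshold in 6 of 10 alternative settings (adjusted exact p from 1.49e-07 to 0.349).

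Elements of the receptor itself showed no difference past the threshold between the members and any other class. AGGTCA was found in 15.6% of the members, against 14.7% of pairs of 24 to 26 bp, 16.6% of pairs of 28 to 30 bp, 14.8% of pairs of 61 to 200 bp and 15.4% of all other pairs (adjusted exact p = 0.448, 0.448, 0.236 and 0.916). Windows 500 bp away held it in 6.30%. The monomer element ANTAGGTCA was in 0.751% of the members, against 0.773% of all other pairs (adjusted exact p = 0.965), and was 3.53 times as frequent as 500 bp away. HNF4 elements, 6.86 times as frequent as 500 bp away, were in 3.01% of the members and 2.50% of pairs of 61 to 200 bp (adjusted exact p = 0.0669). That difference passed in 2 of 10 alternative settings, with pairs enclosing a plus border left out (0.839 points, adjusted exact p = 0.00764) and in a 200 bp window (0.768 points, adjusted exact p = 0.0264), and its adjusted exact p in the others reached 0.735. Among promoter motifs, the ETS element was in 1.85% of the members, against 2.50% of pairs of 61 to 200 bp (adjusted exact p = 0.00487), and the SP/KLF element in 3.48% and 4.30% (adjusted exact p = 0.00792). These last 2 are the motifs that were lower than at 61 to 200 bp.

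**Figure D2:**
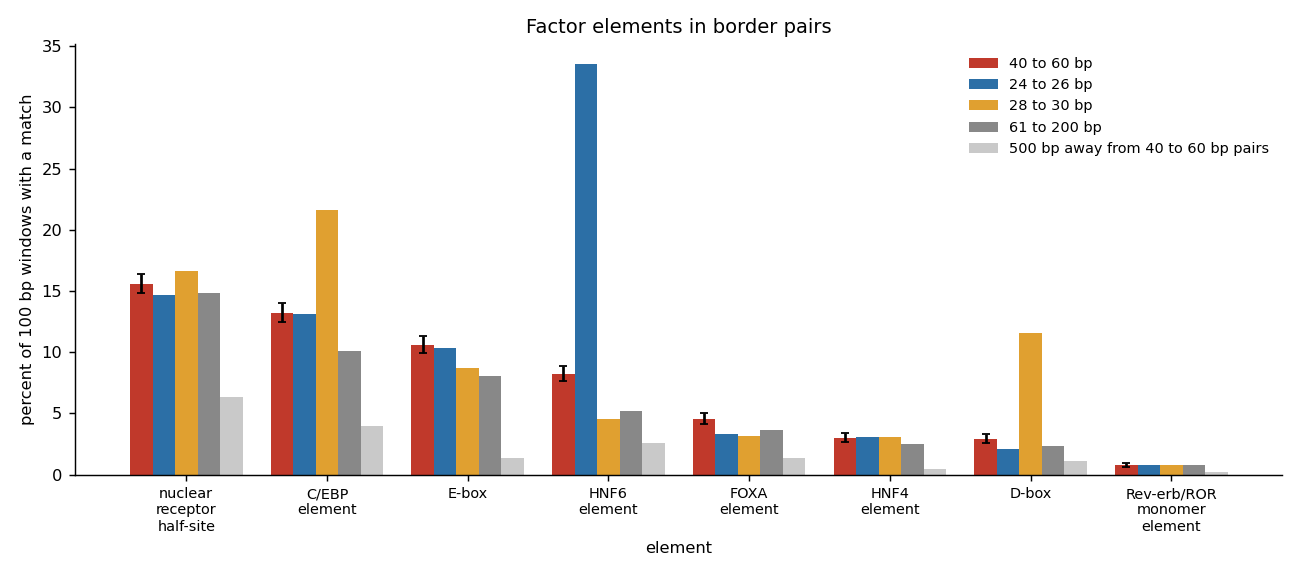
Percent of 100 bp windows (y) with a match to each of 8 elements (x) in pairs of 40 to 60 bp (red, bars give 95% Wilson intervals), pairs of 24 to 26, 28 to 30 and 61 to 200 bp, and in windows 500 bp from the 40 to 60 bp pairs. The members had HNF6 elements in 8.24% and pairs of 24 to 26 bp in 33.5%, while nuclear receptor half-sites stood at 15.6% and 14.7%.

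Within the members, HNF6, C/EBP, E-box, D-box and FOXA elements were concentrated at a set distance from a border. Positions were also counted for the AGGTCA and HNF4 elements, but not for the other motifs searched. Offsets were counted inward from either border to the first base of the match. In the 5300 members with no plus border inside, HNF6 elements were most frequent 8 bases inside the plus border (52 matches) and 11 bases inside the minus border (56 matches). C/EBP elements were most frequent 11 bases inside both (42 and 53), E-boxes 10 bases inside both (54 and 44), D-boxes 11 bases inside both (28 and 36) and FOXA elements 8 bases inside both (31 and 33). Per offset, the stretch from 6 to 12 bases inside the plus border held 13.5 times as many HNF6 elements as the sequence outside the pair. The ratio was 4.73 for C/EBP, 7.76 for the E-box, 5.31 for the D-box and 5.92 for FOXA. At the minus border the ratios ran from 4.96 (C/EBP) to 17.0 (D-box). In pairs of 24 to 26 bp the maxima lay 11 bases inside the plus and 8 inside the minus border for HNF6, and 11 and 7 for C/EBP. They lay at 10 at both for the E-box and 9 at both for FOXA. The D-box, with 4 matches at each maximum, had them at 50 and 42, away from that distance. In pairs of 28 to 30 bp the maxima lay at 11 bases inside both borders for C/EBP and the D-box, and at 8 inside both for HNF6. They lay at 13 and 11 for the E-box, and at 15 and 8 for FOXA (8 and 6 matches). In pairs this narrow a single match lies near both borders and is counted from each. Their maxima at the plus and minus borders can therefore be the same matches. The zone from 6 to 12 bases was chosen after the positions were seen, and the ratios are a description.

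The nuclear receptor half-site had no such maximum. AGGTCA was found 0.942 times as often per offset 6 to 12 bases inside the plus border as outside the pair and 0.932 times at the minus border, and the HNF4 element 0.797 and 0.994 times. In the 24 to 26 bp pairs the half-site was also less frequent there than outside (0.567 and 0.493 times). Outside means the sequence directly beside the pair, so these ratios do not compare the zone with distant sequence. In the 100 bp windows of the members both elements were more frequent than 500 bp away (15.6% and 6.30% for AGGTCA, 3.01% and 0.438% for HNF4).

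**Figure D3:**
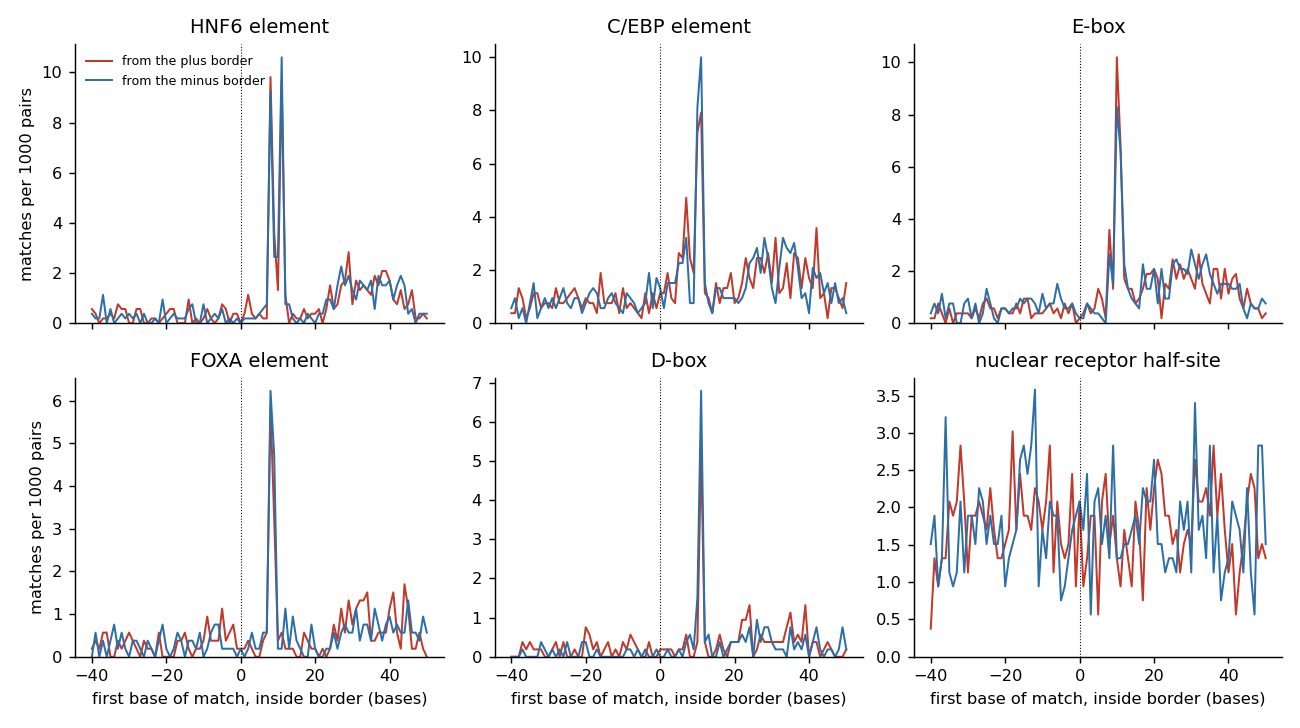
Matches per 1000 pairs (y) by the distance in bases of the first base of the match inside a border (x, negative outside the pair, dotted line at the border) for 6 elements in the 5300 members with no plus border inside, measured from the plus border (red) and the minus border (blue). HNF6, C/EBP, E-box, FOXA and D-box elements rise to a sharp maximum 8 to 11 bases inside both borders, and the nuclear receptor half-site has none.

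Most members had an element of these 5 kinds at neither border. Of all 7986 members, 6381 (79.9%) had none 6 to 12 bases inside a border, 591 (7.40%) had one at the plus border alone, 883 (11.1%) at the minus border alone and 131 (1.64%) at both. In the members with no plus border inside, elements were counted about equally at either end, with 438 (8.26%) at the plus border alone and 452 (8.53%) at the minus border alone, and 71 (1.34%) had one at both. There, an element stood at the minus border in 71 of 509 members that had one at the plus border (13.9%, 95% Wilson interval 11.2 to 17.2), against 452 of 4791 that had none (9.43%, 8.64 to 10.3). The 131 members with an element at both ends comprised 70 with the same kind and 61 with different kinds. HNF6 with HNF6 was the most frequent pairing (38 members), followed by C/EBP with the E-box (15), C/EBP with C/EBP (14), E-box with E-box (12), C/EBP with FOXA (9), C/EBP with HNF6 (8), E-box with HNF6 (7) and FOXA with HNF6 (6).

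Tandem half-sites, the arrangement for a pair of receptors, were counted from the shared core GGTCA on both strands between the borders and 10 bases beyond. No core was found in 76.8% of the members, 1 core in 20.0%, 2 cores in 2.83% and 3 or more in 0.363%, against 88.7%, 10.5%, 0.707% and 0.0501% in stretches of the same length 500 bp away. Neighbouring cores pointed the same way 156 times, faced each other 79 times and stood back to back 53 times, against means of 38.0, 17.0 and 10.5 in the 2 flanks. Among those in the same direction, 13 left 2 bases between the cores, the core spacing of DR1, that is of 2 AGGTCA sites 1 base apart, against 3.5 in the flanks. A further 13 left 3 bases, the core spacing of the DR2 arrangement that Rev-erbα is known to bind as a dimer, against 0.5. A gap of 1 base, which is neither arrangement, was about as frequent, with 12 against 3 in the flanks. The other gaps up to 12 bases held from 3 to 8 each. Only the cores were matched, so DR1 and DR2 here name core spacings, whatever bases precede the cores. With each interval cut into 3 equal stretches, 542 cores lay next to the plus border, 550 in the middle and 549 next to the minus border. The following intervals, chosen after their values were seen, are the 2 DR1 and the 2 DR2 members of highest summed signal among those with a single copy of their central bases, with capitals for the cores.
G6pc, chr11:101212595-101212655: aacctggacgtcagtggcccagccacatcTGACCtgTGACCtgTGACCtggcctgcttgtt
Hpx, chr7:112751787-112751867: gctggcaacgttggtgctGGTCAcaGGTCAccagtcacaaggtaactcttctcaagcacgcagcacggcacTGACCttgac
Vps13d, chr4:144551801-144551880: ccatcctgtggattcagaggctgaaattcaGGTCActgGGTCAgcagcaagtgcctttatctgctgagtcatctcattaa
Nt5c2, chr19:47057859-47057928: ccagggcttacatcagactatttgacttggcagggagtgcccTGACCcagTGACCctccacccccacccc
The first, 16250 bp upstream of G6pc, the glucose-6-phosphatase gene of gluconeogenesis, held 3 cores in tandem and had signals of 1.38 and 0.960 at the plus and minus borders. The second lay 3197 bp upstream of Hpx, which encodes the heme carrier hemopexin, with 0.616 and 1.38. The DR2 interval near Vps13d had 1.34 and 1.79, and that in an intron of Nt5c2 had 1.06 and 1.17 and held no AGGTCA match. By summed signal these 4 stood at numbers 1294, 1827, 633 and 1458 of 7986.

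The members were more often sites of Rev-erbα in fat than most other pairs. A pair was counted as shared where its midpoint lay within 100 bp of a peak centre. An eWAT peak was shared by 450 members (5.63%), against 3.28% of pairs of 24 to 26 bp (adjusted exact p = 1.94e-07), 4.33% of pairs of 61 to 200 bp (adjusted exact p = 8.07e-06) and 4.74% of all other pairs (adjusted exact p = 0.00165). Pairs of 28 to 30 bp shared one more often than the members (5.63% of members and 7.11% of those pairs, adjusted exact p = 0.0193; Fisher's exact test, adjusted over 12 comparisons). By summed signal, the difference from all other pairs passed in the highest quartile alone. Among the pairs from 1.93 up the shares were 10.2% of members and 7.49% of all other pairs (adjusted exact p = 1.82e-04). From 1.32 to 1.93 they were 4.42% and 4.56% (adjusted exact p = 0.861), and from 0.943 to 1.32 they were 4.52% and 3.82% (adjusted exact p = 0.296). Up to 0.943 they were 3.36% and 3.07% (adjusted exact p = 0.891). Among pairs over 1 kb from a start they were 6.01% and 5.40% (adjusted exact p = 0.0908), and among pairs within 1 kb 4.37% and 2.85% (adjusted exact p = 0.0036). With both border p-values at 0.02 or less the difference from all other pairs was 0.157 points (adjusted exact p = 0.743), the lowest of 11 alternative settings, whose adjusted exact p began at 2.88e-04.

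Brain peaks were shared by 489 members (6.12%), against 3.53% of pairs of 24 to 26 bp (adjusted exact p = 3.42e-08), 6.49% of pairs of 28 to 30 bp (adjusted exact p = 0.592), 6.44% of pairs of 61 to 200 bp (adjusted exact p = 0.398) and 6.08% of all other pairs (adjusted exact p = 0.878). The interval of the difference from all other pairs ran from -0.516 to 0.638 points. Of the members with a brain peak 60.1% lay within 1 kb of a start, as did 17.8% of those with an eWAT peak. Both peaks were present at 85 members (1.06%), whose median summed signal was 2.04, and neither at 7132 (89.3%), whose median was 1.32.

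**Figure D4:**
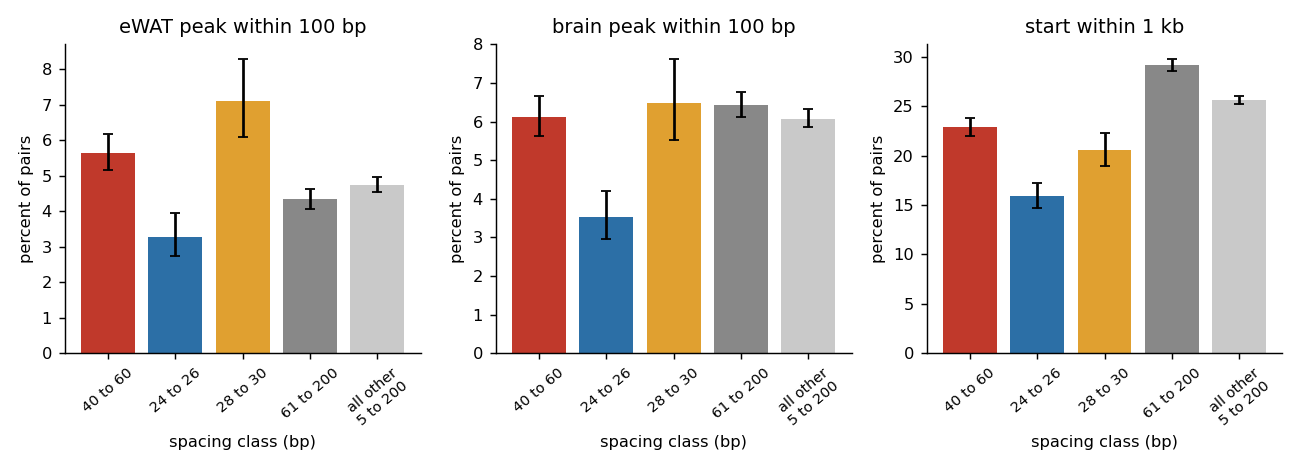
Percent of border pairs (y) with an eWAT peak within 100 bp, a brain peak within 100 bp or an annotated start within 1 kb, by spacing class (x), with 95% Wilson intervals. The 40 to 60 bp pairs stand at 5.63%, 6.12% and 22.9%, and all other pairs at 4.74%, 6.08% and 25.6%.

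The members lay away from starts more often than wider pairs. Of 7986 midpoints, 3654 (45.8%) were intergenic, 3554 (44.5%) intronic and 778 (9.74%) exonic, and 1830 (22.9%) lay within 1 kb of a protein-coding start. This share was lower than the 29.2% of pairs of 61 to 200 bp (adjusted exact p = 5.72e-26) and the 25.6% of all other pairs (adjusted exact p = 7.95e-07), and higher than the 15.9% of pairs of 24 to 26 bp (adjusted exact p = 8.47e-17) and the 20.6% of pairs of 28 to 30 bp (adjusted exact p = 0.0294). Over 9 alternative settings the difference from all other pairs ran from -3.41 to -0.826 points (adjusted exact p from 2.29e-07 to 0.249). It missed the threshold in 1, with pairs enclosing a plus border left out (adjusted exact p = 0.249). By summed signal it also missed among the pairs from 1.93 up (18.4% of members and 18.6% of all other pairs, adjusted exact p = 0.8) and among those from 1.32 to 1.93 (21.7% and 24.1%, adjusted exact p = 0.0624).

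The strongest member with a peak in both other tissues was the Phf17 interval (eWAT rank 63, brain rank 3030). It was followed by Fam76a (eWAT rank 32, brain rank 19) and by an interval 11536 bp upstream of Pim3, a serine/threonine kinase (chr15:88681053-88681108, signals 7.10 and 4.91, eWAT rank 86, brain rank 212). Next came Bhlhe41 (ranks 12 and 4) and an intergenic interval 83148 bp from Lsm3 (chr6:91549155-91549199, 3.24 and 5.93, ranks 8 and 34), which held 2 E-boxes and enclosed a pair of 37 bp. Nptn (ranks 60 and 18), Dusp7, a phosphatase of the ERK kinases (ranks 50 and 130), 1700001L05Rik (ranks 721 and 4034), Tspan4 (ranks 26 and 771) and Crispld2 (ranks 40 and 1821) completed the first 10.

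Of 23 core clock genes, 12 had a member within 10 kb of a start. The background was 17.7% of 22208 protein-coding genes with a member that near. A border pair of any spacing from 5 to 200 bp lay that near 22 of the 23, beside 45.5% of all protein-coding genes. By summed signal the first was Tef, a PAR bZIP activator that binds D-boxes (chr15:81632966-81633011, 2.67 and 12.4 at the plus and minus borders), with an E-box 10 bases inside the plus border and brain rank 73. Bhlhe41 and Bhlhe40, related repressors that bind E-boxes, followed with intervals 9452 bp and 7653 bp downstream of their starts (7.09 and 4.79 at Bhlhe41, 7.65 and 2.61 at Bhlhe40). Nfil3, a repressor that competes for D-boxes, had an intronic interval 6205 bp downstream (3.07 and 3.29) with an E-box 10 bases inside each border. Hlf, another PAR bZIP activator, had an interval 572 bp upstream of its nearest start (1.91 and 1.75). At Arntl, which encodes BMAL1, an interval 393 bp upstream of a start had 1.00 and 1.32 and no match to the 19 motifs.
Bhlhe41, chr6:145804331-145804410: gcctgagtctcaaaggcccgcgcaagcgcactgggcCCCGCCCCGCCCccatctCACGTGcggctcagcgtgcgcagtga
Bhlhe40, chr6:108618482-108618561: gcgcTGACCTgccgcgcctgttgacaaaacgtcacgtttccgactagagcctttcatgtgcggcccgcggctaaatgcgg
Nfil3, chr13:53070207-53070267: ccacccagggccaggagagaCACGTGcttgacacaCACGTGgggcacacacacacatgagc
Hlf, chr11:90243782-90243861: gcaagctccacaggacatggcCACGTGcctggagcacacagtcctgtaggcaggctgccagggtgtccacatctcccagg
Per3, chr4:150419388-150419462: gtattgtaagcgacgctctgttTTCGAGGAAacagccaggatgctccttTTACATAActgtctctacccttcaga
Arntl, chr7:120350552-120350620: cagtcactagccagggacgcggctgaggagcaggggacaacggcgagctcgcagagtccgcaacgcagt
These sequences, with capitals for motif matches, show E-boxes in 3 of the first 4 and a D-box in Per3. The Per3 interval, 651 bp upstream of a start, had signals of 1.02 and 0.710.

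The remaining 5 clock genes had members between numbers 3026 and 7414 by summed signal. Per2 had one in an intron 2672 bp downstream of a start (0.945 and 0.629, a sum of 1.57 beside the median of 1.33 over all members), while a stronger Per2 promoter pair of 39 bp (6.07 and 10.8, rank 6 in both eWAT and brain) lay just outside the rule. Rora, an activator at the same half-site as Rev-erbα, had an intronic interval with 0.724 and 0.696. Csnk1d and Csnk1e, the casein kinases that act on PER proteins, had signals of 0.716 and 0.537 (Csnk1d) and of 0.541 and 0.361 (Csnk1e). In Nr1d2, which encodes the paralog Rev-erbβ, the interval had 0.385 and 0.284 and stood at number 7414 of 7986. A promoter pair of Dbp 61 bp wide (4.13 and 9.30, eWAT rank 6), 289 bp upstream of its start, also fell just outside.

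Metabolic lists of the liver had members near many of their genes, beside the same background of 17.7%. A border pair of any spacing from 5 to 200 bp lay within 10 kb of all 10 heme, all 15 lipoprotein and all 16 glucose genes, 31 of 32 lipid genes and 15 of 17 bile acid and cholesterol genes, beside 45.5% of all protein-coding genes. In heme synthesis and breakdown they were present at 9 of 10 genes, among them Alas1, the rate-limiting synthase (chr9:106136791-106136851, signals 1.13 and 2.05 at the plus and minus borders), Cpox (1.42 and 1.28) and Uros (0.927 and 0.854). Lipoprotein genes had one at 11 of 15, with Apoc2 (1.04 and 2.06), Apoa2 (1.82 and 0.615, across its start), Lipc (1.32 and 1.11) and Mttp (1.35 and 0.527). Of the genes of lipid synthesis and storage 20 of 32 had a member. The strongest were at Mlxipl, which encodes the glucose-responsive activator ChREBP (3.49 and 1.71), Pnpla3 (0.846 and 2.70), Angptl4 (1.88 and 1.45) and Elovl3, a fatty acid elongase (1.79 and 1.41, 23 bp from its start). Glucose metabolism had 8 of 16, with Slc2a2 (1.28 and 1.71) and Irs2 (0.840 and 1.54) highest.

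Bile acid and cholesterol genes had a member at 6 of 17. These included Slc10a1, the bile acid importer (2.85 and 4.21), Cyp7a1, the rate-limiting enzyme of bile acid synthesis (1.13 and 1.72, 3026 bp upstream of its start), and 1 interval shared by the neighbours Abcg5 and Abcg8 (1.25 and 1.50). Nuclear receptor genes stood at 13 of 26, beside 17.7% of all protein-coding genes. They were led by Ppara and by an intronic interval of Esr1 (2.59 and 5.97) that enclosed a pair of 24 bp. The interval in an intron of Thra, whose gene overlaps Nr1d1 on the other strand, had 0.948 and 2.09 and a peak in both other tissues (eWAT rank 231, brain rank 519). Liver transcription factors had 8 of 17, with Foxa3 (3.49 and 0.862) and Hnf4a (0.688 and 1.16), acute phase genes 8 of 14, with Fga (1.41 and 2.81) and Hp (2.37 and 0.931), and the NCoR/HDAC3 complex 1 of 6, at Ncor1 (0.538 and 0.483). A border pair of any spacing from 5 to 200 bp lay within 10 kb of 23 of the 26 nuclear receptor genes and 16 of the 17 liver transcription factors. One also lay that near all 14 acute phase genes and all 6 genes of the complex, beside 45.5% of all protein-coding genes.

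Among markers of cell types, hepatocyte markers had a member at 11 of 20 genes, led by Tat (1.15 and 4.46). The share of all protein-coding genes was 17.7%. Kupffer and immune markers had 0 of 12, cholangiocyte markers 0 of 6 and skeletal muscle markers 0 of 9. Neuron markers, at 3 of 17 (17.6%), stood at the share of all genes. Endothelial and stellate markers had 3 of 12 and adipocyte markers 4 of 13, among them Pparg (0.800 and 1.05, eWAT rank 967). Housekeeping genes had 7 of 12, with Ywhaz highest (0.498 and 1.77). A border pair of any spacing from 5 to 200 bp lay within 10 kb of all 20 hepatocyte markers and 10 of the 12 housekeeping genes. One lay that near 1 Kupffer and immune, 1 cholangiocyte, 1 skeletal muscle, 3 neuron, 4 endothelial and stellate and 7 adipocyte markers. Of all protein-coding genes, 45.5% had one that near. The 3 lists with no member thus had few pairs of any spacing.

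**Figure D5:**
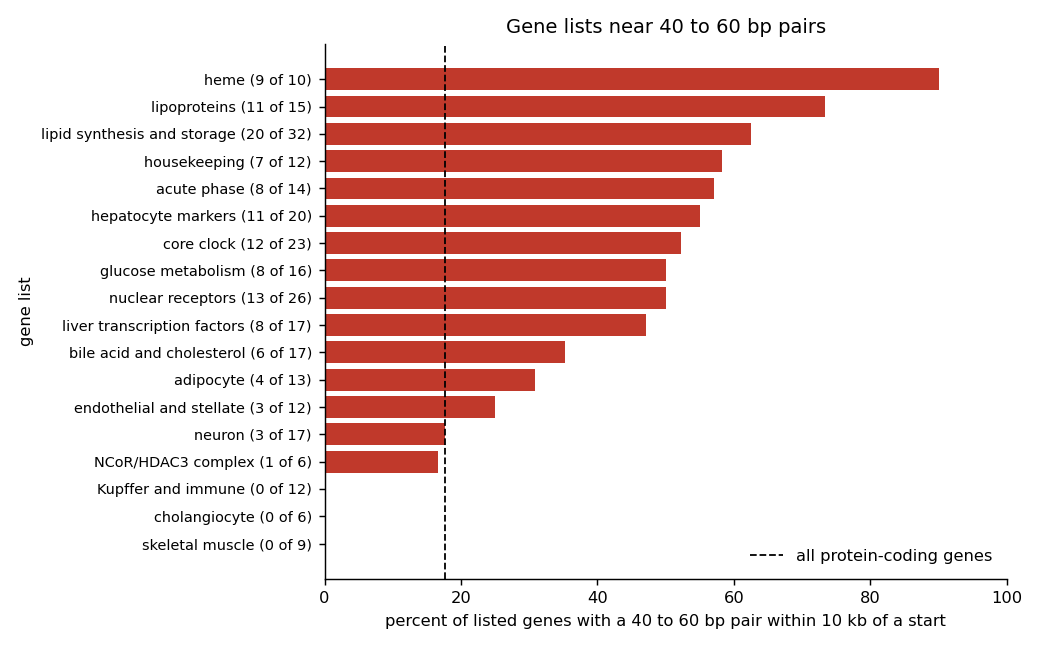
Percent of the genes of each list (rows, with counts) that had a 40 to 60 bp pair within 10 kb of a start (x). The dashed line marks the 17.7% of all protein-coding genes. Heme genes stand highest with 9 of 10, and the Kupffer, cholangiocyte and muscle lists have none.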

How the data were processed

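Per the labels' protocols, liver, eWAT and ventral tegmental area were crosslinked with formaldehyde and sonicated, and ChIP-exo DNA was digested with lambda and RecJf exonucleases on the beads. The submitters' processing notes name mm9, Bowtie 1.1.1 for ChIP-exo, Bowtie 0.12.8 for ChIP-seq and HOMER, with no roles. Settings of the callers, and whether inputs were used or libraries pooled, are not stated in the labels or headers. Per the file headers, each deposited border has a signal (0.0602 to 343.3, with no stated scale) and its p-value (0.00503 to 0.05), and each peak line carries the authors' score, used here only to rank peaks within a list. The labels give 2 libraries for ChIP-exo and for eWAT and 1 for brain, and each group has 1 list.

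Borders were joined as the report states. Midpoints were compared with peak centres (100 bp), protein-coding starts of GENCODE vM1 (1 kb, and 10 kb for 18 gene lists, in which 268 of 270 symbols matched, 3 by an older symbol) and the mm9 sequence (NCBIM37). A place is that of the midpoint in any protein-coding gene. Shares were compared by Fisher's exact test, two-sided (scipy 1.17.1, Python 3.11.15), with Benjamini-Hochberg adjustment at 0.05 over 12 share tests or 76 motif tests. In the strata by distance or signal, adjustment was within each stratum. Intervals are 95% Wilson intervals, and Newcombe intervals for differences. Pairing and tests were checked on simulated data. The members, lists and motifs were chosen with earlier results of these data known. Genes were named by rule: the 12 members of highest summed signal, the 10 highest with both peaks, every core clock gene with a member within 10 kb, up to 4 genes of each other list, and the 3 highest pairs at 39, 40, 60 and 61 bp. Some of these are given by count only, and other intervals are said to be chosen after their values were seen.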

Additional observations from a re-analysis of the deposited data

How the results depend on the processing

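Of 219 comparisons of the main results with an alternative, 173 kept their direction and their side of the threshold, or their count within 1.5 times. Leaving out pairs whose central 31 bases occur more than once in mm9, an alternative chosen after seeing the data, changed no call of the main share comparisons and no count of motifs called. Leaving out dense stretches likewise changed no call of the share comparisons, and lowered the motifs higher than at 28 to 30 bp to 3, against 4. No paired analysis was possible because each group has 1 list with no value per library, and leaving out a library could not be done for the same reason. Leaving out soft-masked repeats was not run, since the reference sequence is not masked. The depth is unknown, so no limit on undetected borders can be given.

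The number of members was 5300 with pairs that enclose no plus border alone, 1886 with both border p-values at 0.02 or less and 4452 with both signals at or above the list median. Differences below are members minus the named class, in percentage points, and the cause of each change was not tested. With pairs that enclose no plus border, the difference in brain peaks from 61 to 200 bp was 0.0147 and that in starts from all other pairs -0.826. With the stricter border p-value, eWAT differences were 0.425 (61 to 200 bp) and 0.157 (all other pairs) and no longer passed, brain differences were -2.55 (28 to 30 bp, now past the threshold) and -0.561 (all other pairs), and the start difference from 28 to 30 bp was 2.52. With stronger signals, differences from 28 to 30 bp no longer passed for eWAT (-1.62) or starts (2.11). Over 1 kb from every start, differences were 0.613 (eWAT, all other pairs) and 0.179 (brain, 61 to 200 bp). With members of 45 to 55 bp the eWAT difference from 28 to 30 bp was -1.27. Brain differences were -0.0456 from all other pairs with peak centres within 75 bp, and -1.35 (61 to 200 bp, past the threshold) and -0.463 (all other pairs) within 250 bp. The start difference from 28 to 30 bp was 1.86 at 500 bp and 1.57 at 5 kb.

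Counts of motifs called moved most. With pairs that enclose no plus border they were 2 higher than at 28 to 30 bp, 1 lower than at 61 to 200 bp, and 1 higher and 1 lower than in all other pairs. With the stricter border p-value they were 2 higher and 1 lower than at 24 to 26 bp, 2 higher than at 28 to 30 bp, 1 higher and 1 lower than at 61 to 200 bp, and 0 higher than in all other pairs. With stronger signals 0 were lower than at 61 to 200 bp. Merged loci gave 2 higher than at 28 to 30 bp, 1 lower than at 61 to 200 bp and 1 higher than in all other pairs. Away from starts 0 were lower than at 61 to 200 bp and 1 was higher than in all other pairs, and with 45 to 55 bp the counts were 1 and 1. A 60 bp window gave 1 lower than at 61 to 200 bp and 5 higher than in all other pairs, and a 200 bp window 2 higher than at 28 to 30 bp and 1 higher than in all other pairs. The HNF6 difference from all other pairs became -1.98 with pairs that enclose no plus border, -0.752 with the stricter p-value, -0.414 with stronger signals, -0.675 with merged loci, -0.292 away from starts, -0.176 with 45 to 55 bp and -0.224 in a 200 bp window. The D-box difference from all other pairs became -0.0111 with stronger signals and -0.0525 in a 200 bp window. For AGGTCA it became -0.625 (61 to 200 bp) and -0.611 (all other pairs) with stronger signals, -0.231 (all other pairs) away from starts, -0.177 (61 to 200 bp) and -0.319 (all other pairs) in a 60 bp window and -0.338 (all other pairs) in a 200 bp window.

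Neighbouring GGTCA cores in the same direction numbered 100 in all and 7 in the DR1 arrangement with pairs that enclose no plus border, an alternative added after seeing the data. Of 268 listed genes, 118 had a member within 10 kb of a start, 48 within 1 kb and 179 within 50 kb, beside 17.7%, 8.16% and 39.7% of all protein-coding genes.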
